A study of Mus musculus with 18 samples.

Results

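The Bcl2 family of survival and death genes was followed through the RNA-seq comparisons of mouse dentate gyrus, which is built mainly of granule neurons. Its 10 members were chosen by symbol, as the rows named Bcl2, Bcl2l1, Mcl1, Bax, Bak1, Bcl2l11, Bid, Bad, Hrk and Bmf, out of 23988 gene rows present in all 3 of the authors' deposited tables. All 10 were found and tested in each table. The 18 libraries came from C57BL/6 mice aged 8 weeks, with 3 libraries in each of 6 groups and a library for each animal. The first 2 groups carried a short hairpin RNA named for c-Fos and were taken at E1 (shRNA-cFos_E1) or E0 (shRNA-cFos_E0). A control hairpin gave the groups shRNA-Ctrl_E1 and shRNA-Ctrl_E0. The last pair overexpressed c-Fos, which pairs with Jun proteins to form AP-1 (cFos_OE), or the yellow fluorescent protein EYFP (EYFP_OE). The series concerns neuronal activation, and the authors' hairpin tables are named for E1 against sham, taken here as E0. The promoter and cell type that drove the constructs, their delivery and the means of activation are not stated in the labels or headers used here.

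Bcl2 family proteins decide at the outer mitochondrial membrane whether a cell releases cytochrome c and starts apoptosis. Bcl2, Bcl2l1 (Bcl-xL) and Mcl1 encode survival proteins that hold the killers in check. Bax and Bak1 encode the effectors that form pores in the membrane. Bcl2l11 (Bim), Bid, Bad, Hrk and Bmf encode BH3-only proteins, which relay death signals by binding the survival proteins, and some of which engage the effectors directly. Mature neurons depend on survival proteins such as Bcl-xL and Mcl1.

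Mcl1 rose at E1 with both hairpins, and with the control hairpin its change was the largest of the 10 genes. With the c-Fos hairpin the largest was the fall of Bak1. Hrk fell in all 3 comparisons. Bcl2l1 rose at E1 with the c-Fos hairpin, fell at E1 with the control hairpin and fell with c-Fos overexpression. Bcl2l11 passed in the overexpression comparison only, where it was the 1 member to rise. A difference in its response between overexpression and E1 was not tested. Bcl2 and Bmf passed the threshold in none of the 3.

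With shRNA-cFos, 2 of the 10 members rose and 4 fell at E1 in the authors' deposited table at an adjusted p under 0.05, where 16.3% of all 14388 tested genes were higher and 11.7% lower. For shRNA-Ctrl, the authors' deposited table had 2 members higher and 3 lower, against 16.8% higher and 16.2% lower of 15675 genes. With c-Fos overexpression, 1 member was higher and 2 were lower in the authors' deposited table, against 7.1% higher and 5.86% lower of 15827 genes. The median log2 fold change of the members was -0.17 for shRNA-cFos, -0.13 for shRNA-Ctrl and 0.04 for overexpression, and that of all tested genes -0.003, 0.007 and -0.007, from the authors' deposited tables. The number of members that rose was near the background in all 3 comparisons. The number that fell was above the background share in each by a few genes at most, and with 10 members this was not tested. The background also holds genes with lower counts than any member, down to means of 12.2 for shRNA-cFos, 5.40 for shRNA-Ctrl and 3.64 for overexpression. Its shares are thus not those of genes at the members' counts.

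**Figure D1:**
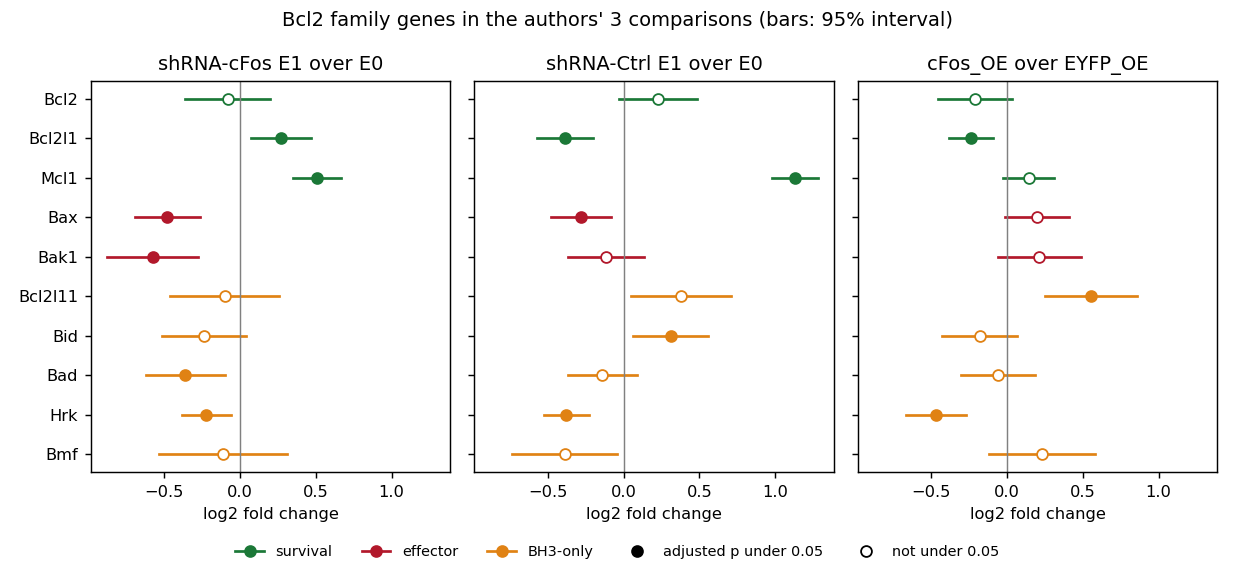
Log2 fold change of each Bcl2 family gene (rows, coloured by role) in the authors' 3 comparisons (panels), as a point with its 95% interval, filled where the adjusted p was under 0.05. Mcl1 lies to the right in both E1 panels (0.51 and 1.13), Hrk lies to the left in all 3 panels, and Bcl2l1 lies on opposite sides of 0 in the E1 panels (0.27 and -0.39).

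The tables hold no values per library, so each gene is given by its level in each group, estimated from the authors' mean normalized count over 6 libraries and the fold change with shrinkage undone. These levels carry no error of their own. They compare groups within a table and not between tables, which were normalized separately. The error of each difference is the authors' standard error of the log2 fold change, given after ±. In bulk tissue, fewer cells of a type and less RNA per cell cannot be told apart. Fos checked the constructs in the authors' deposited tables, with log2 fold changes at E1 of 2.33 ± 0.15 for shRNA-cFos and 3.36 ± 0.14 for shRNA-Ctrl, and of 3.34 ± 0.20 for overexpression. The E1 rise of Fos was thus lower with shRNA-cFos, by a difference of -1.03 ± 0.20 between the authors' deposited tables (adjusted p = 1.1e-05). These fold changes are shrunken toward 0, most strongly for overexpression, so 3.36 and 3.34 do not show rises of equal size. The mean normalized count of Fos was 585 for shRNA-cFos, 1152 for shRNA-Ctrl and 27445 for overexpression in the authors' deposited tables. The granule neuron marker Prox1 was abundant in each authors' deposited table, at mean normalized counts of 1762 for shRNA-cFos, 2741 for shRNA-Ctrl and 2725 for overexpression.

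The start-site regions of Mcl1, Hrk, Bcl2l11 and Bax are printed because these genes passed in at least 1 comparison and their windows hold a searched motif other than the GC box core. The windows of Bcl2l1 and Bak1 hold none of the searched motifs and are not printed. Each window runs from 250 bases before to 50 after a RefSeq start site in GRCm38.p6, 5′ to 3′ on the gene's own strand. All 10 members matched the promoter table, with 16 windows in all. The Mcl1 window is chr3:95658471-95658770 (+ strand) and the Hrk window is chr5:118169514-118169813 (+ strand), and in both the capitals CGTCA mark TGACG, the shorter form of the cyclic AMP response element, on the other strand. In Hrk the capitals also mark TGATGNAA, the core of the composite element of ATF4 and C/EBP factors. The Bcl2l11 window is chr2:128125788-128126087 (+ strand), the upstream one of 2, with the forkhead motif GTAAACA in capitals. The Bax window is chr7:45466849-45467148 (- strand), with 2 copies of the E-box CACGTG in capitals.
Mcl1: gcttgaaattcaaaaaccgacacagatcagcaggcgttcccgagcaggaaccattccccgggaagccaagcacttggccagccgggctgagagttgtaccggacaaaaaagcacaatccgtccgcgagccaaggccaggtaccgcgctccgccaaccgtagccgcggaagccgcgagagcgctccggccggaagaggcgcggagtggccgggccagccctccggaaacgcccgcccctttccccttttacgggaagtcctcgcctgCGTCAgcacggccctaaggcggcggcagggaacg
Hrk: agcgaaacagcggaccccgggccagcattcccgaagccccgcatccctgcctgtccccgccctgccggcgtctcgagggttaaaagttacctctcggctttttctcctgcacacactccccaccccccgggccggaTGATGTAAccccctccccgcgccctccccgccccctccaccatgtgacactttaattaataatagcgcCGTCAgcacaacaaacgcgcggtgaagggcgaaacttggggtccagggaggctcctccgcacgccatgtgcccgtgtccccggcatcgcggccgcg
Bcl2l11: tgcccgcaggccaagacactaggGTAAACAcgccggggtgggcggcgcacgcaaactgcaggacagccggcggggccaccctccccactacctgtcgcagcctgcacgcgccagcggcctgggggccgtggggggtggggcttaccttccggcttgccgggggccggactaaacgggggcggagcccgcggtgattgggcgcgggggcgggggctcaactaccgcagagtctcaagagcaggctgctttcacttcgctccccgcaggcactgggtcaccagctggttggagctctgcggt
Bax: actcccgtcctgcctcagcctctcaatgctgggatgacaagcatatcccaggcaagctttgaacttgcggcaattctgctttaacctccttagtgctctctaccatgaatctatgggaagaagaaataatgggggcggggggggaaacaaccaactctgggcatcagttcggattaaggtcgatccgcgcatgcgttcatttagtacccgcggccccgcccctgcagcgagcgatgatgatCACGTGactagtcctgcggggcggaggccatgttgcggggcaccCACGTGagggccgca

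Searched on both strands, the AP-1 motif TGANTCA was in 0 of the 16 member windows and in 7.81% of the 32851 windows of the table. TGACG was in 4 member windows, those of Bcl2, Bmf, Mcl1 and Hrk, and in 20.8% of all windows. The full element TGACGTCA, which contains TGACG, was in 0 member windows and in 1.79% of all. The CArG box was in 0 member windows and in 1.63% of all. GTAAACA was in 1 member window (3.65% of all), CACGTG in 1 (7.15% of all) and TGATGNAA in 1 (3.97% of all). The GC box core CCGCCC was in 9 member windows, of 8 genes, and in 35.7% of all. The member windows had a GC content of 49.3% to 76%, beside a median of 52.7% for all windows. These shares were not matched for GC content. Read along the printed strand, CGTCA began 16 bases after the start site in Mcl1, which rose at E1, and 46 before it in Hrk, which fell. A match describes the letters of the window only.

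Among the survival genes, Mcl1, whose short-lived protein blocks Bak1 and Bim, had the strongest change at E1 with either hairpin. Its estimated level was 2385 normalized counts in shRNA-cFos_E1 and 1662 in shRNA-cFos_E0, from the authors' deposited table. With the control hairpin it was 3601 in shRNA-Ctrl_E1 and 1624 in shRNA-Ctrl_E0, from the authors' deposited table. Mcl1 was thus higher at E1 in each arm, by a log2 fold change of 0.51 ± 0.08 with shRNA-cFos (adjusted p = 1.4e-08) and 1.13 ± 0.08 with shRNA-Ctrl (adjusted p = 9.0e-46) in the authors' deposited tables. These are 1.42-fold and 2.19-fold. They exceeded the log2 fold changes of 94.2% and 98.5% of tested genes in the authors' deposited tables. With overexpression, Mcl1 was at 1466 in cFos_OE and 1322 in EYFP_OE, and its log2 fold change in the authors' deposited table was 0.14 ± 0.09, which did not pass (adjusted p = 0.34, 95% interval -0.03 to 0.31).

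Bcl2l1, whose product Bcl-xL protects mature neurons, changed direction between the arms. Its estimated level was 1141 in shRNA-cFos_E1 and 940 in shRNA-cFos_E0, from the authors' deposited table. The control hairpin gave 1483 in shRNA-Ctrl_E1 and 1953 in shRNA-Ctrl_E0, from the authors' deposited table. Bcl2l1 rose by 0.27 ± 0.10 with shRNA-cFos (adjusted p = 0.028) and its log2 fold change was -0.39 ± 0.09 with shRNA-Ctrl (adjusted p = 0.00028) in the authors' deposited tables. Of the 14341 genes tested in all 3 tables, 302 (2.11%) rose with shRNA-cFos and fell with shRNA-Ctrl in this way. With overexpression, Bcl2l1 was lower, at 1519 in cFos_OE and 1802 in EYFP_OE, and its log2 fold change in the authors' deposited table was -0.24 ± 0.07 (adjusted p = 0.015).

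Bcl2, the founding survival gene of the family, did not pass in any table. Its estimated levels were 251 in shRNA-cFos_E1 and 267 in shRNA-cFos_E0, 323 in shRNA-Ctrl_E1 and 274 in shRNA-Ctrl_E0, and 211 in cFos_OE and 248 in EYFP_OE, from the authors' deposited tables. The 95% intervals of its log2 fold change were -0.36 to 0.20 with shRNA-cFos, -0.03 to 0.48 with shRNA-Ctrl and -0.45 to 0.03 with overexpression, computed from the authors' deposited tables.

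**Figure D2:**
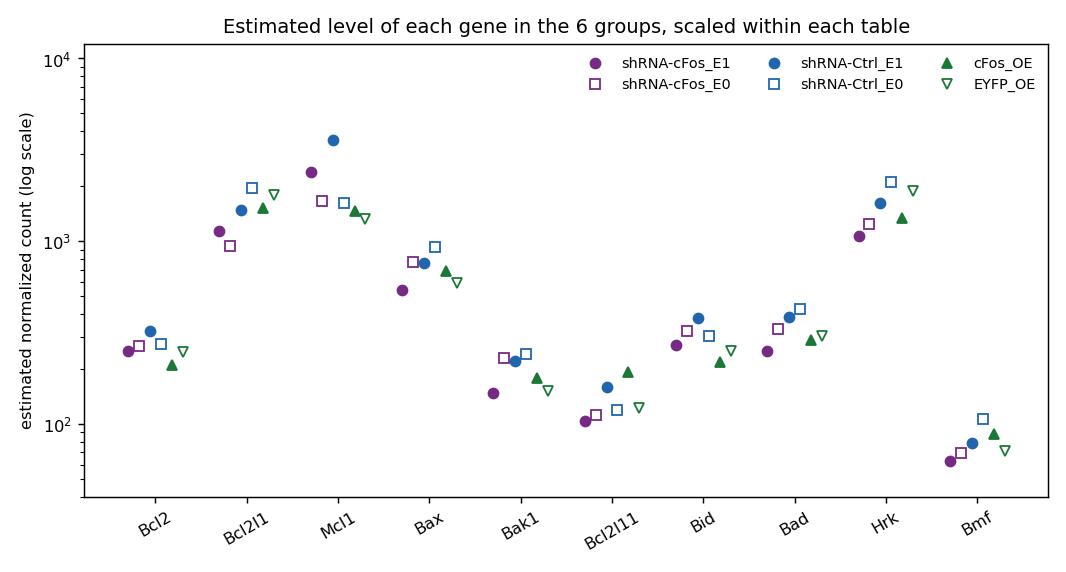
Estimated normalized count (log axis) of each Bcl2 family gene in the 6 groups, with filled symbols for E1 and cFos_OE and open ones for E0 and EYFP_OE, comparable within a colour only. Mcl1 stands at 3601 in shRNA-Ctrl_E1 and 1624 in shRNA-Ctrl_E0, and Hrk is lower in the filled symbol of each colour.

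Both effector genes fell at E1 with the c-Fos hairpin. Bax, which moves to mitochondria when activated, was at 545 in shRNA-cFos_E1 and 772 in shRNA-cFos_E0, and its log2 fold change in the authors' deposited table was -0.48 ± 0.11 (adjusted p = 0.00013). In the control arm it was at 763 in shRNA-Ctrl_E1 and 933 in shRNA-Ctrl_E0, and its log2 fold change in the authors' deposited table was -0.28 ± 0.10 (adjusted p = 0.021). Bax was thus lower at E1 in each arm. Bak1, which resides on mitochondria and is held by Mcl1 and Bcl-xL, was at 148 in shRNA-cFos_E1 and 229 in shRNA-cFos_E0, and its log2 fold change in the authors' deposited table was -0.58 ± 0.15 (adjusted p = 0.0013). With shRNA-Ctrl, where Bak1 was at 222 in E1 and 242 in E0, its log2 fold change was -0.12 ± 0.13 in the authors' deposited table and did not pass (adjusted p = 0.52). With overexpression neither passed. Bax was at 687 in cFos_OE and 593 in EYFP_OE, and its log2 fold change was 0.20 ± 0.11 in the authors' deposited table (adjusted p = 0.28). With Bak1 at 180 in cFos_OE and 151 in EYFP_OE, its log2 fold change was 0.21 ± 0.14 in the authors' deposited table (adjusted p = 0.41).

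Hrk, a BH3-only gene known for its expression in neurons and its induction in dying ones, was lower in every comparison. Its estimated levels were 1064 in shRNA-cFos_E1 and 1246 in shRNA-cFos_E0, from the authors' deposited table. They were 1618 in shRNA-Ctrl_E1 and 2110 in shRNA-Ctrl_E0, and 1341 in cFos_OE and 1895 in EYFP_OE, from the authors' deposited tables. The log2 fold change was -0.22 ± 0.08 with shRNA-cFos (adjusted p = 0.032), -0.38 ± 0.08 with shRNA-Ctrl (adjusted p = 9.7e-06) and -0.47 ± 0.10 with overexpression (adjusted p = 8.4e-05) in the authors' deposited tables. Of the 14341 genes tested in all 3 tables, 46 (0.321%) were lower and passed in each. With overexpression, 2.12% of tested genes had a lower log2 fold change than Hrk.

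Bcl2l11 encodes Bim, which binds all the survival proteins and is a target of forkhead factors. It was at 194 in cFos_OE and 122 in EYFP_OE, and its log2 fold change in the authors' deposited table was 0.55 ± 0.16 (adjusted p = 0.0049), or 1.47-fold. This was above 96.6% of tested genes. Its levels were 104 in shRNA-cFos_E1 and 112 in shRNA-cFos_E0, and 159 in shRNA-Ctrl_E1 and 119 in shRNA-Ctrl_E0, from the authors' deposited tables. At E1 it did not pass, with log2 fold changes of -0.10 ± 0.18 for shRNA-cFos (adjusted p = 0.73) and 0.38 ± 0.17 for shRNA-Ctrl (adjusted p = 0.067) in the authors' deposited tables. The second of these has a 95% interval of 0.05 to 0.71 that does not reach 0, while its p adjusted over all genes misses the threshold.

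Bid, which links death receptors to mitochondria once cut by caspase-8, rose at E1 with the control hairpin, by 0.31 ± 0.13 in the authors' deposited table (adjusted p = 0.045). Its level was 381 in shRNA-Ctrl_E1 and 303 in shRNA-Ctrl_E0. This call sat at the threshold and was lost when each value was centred on the table's median (adjusted p = 0.051) or when every gene with a p was adjusted over (adjusted p = 0.057). With shRNA-cFos, Bid was at 270 in E1 and 323 in E0, and its log2 fold change in the authors' deposited table was -0.24 ± 0.14, which did not pass (adjusted p = 0.20). With overexpression Bid was at 217 in cFos_OE and 250 in EYFP_OE, from the authors' deposited table, and did not pass there (log2 fold change -0.18 ± 0.13, adjusted p = 0.45). Bad, which growth factor signalling keeps inactive, fell with shRNA-cFos, to 253 in E1 against 330 in E0, and its log2 fold change in the authors' deposited table was -0.36 ± 0.13 (adjusted p = 0.029). Bad did not pass with shRNA-Ctrl (-0.14 ± 0.12, adjusted p = 0.39) or with overexpression (-0.06 ± 0.12, adjusted p = 0.88) in the authors' deposited tables. Bmf, which is tied to the cytoskeleton until released, had the lowest counts of the members, at mean normalized counts of 66.3 to 92.4 in the authors' deposited tables. It was at 78.7 in shRNA-Ctrl_E1 and 106 in shRNA-Ctrl_E0, and its largest log2 fold change was -0.39 ± 0.18 with shRNA-Ctrl in the authors' deposited table (adjusted p = 0.078). At about 0.18 to 0.22, its standard errors were the largest of the members in each authors' deposited table.

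To set levels of different genes side by side, estimated counts were divided by the length of each gene's annotated exons in GRCm38. Exons were merged over all transcripts of a gene, used in this tissue or not. The order depends on these lengths, from 0.867 kilobases for Bax to 9.16 for Bcl2. In shRNA-Ctrl_E0, from the authors' deposited table, Bax was highest at 1076 normalized counts per kilobase, followed by Bcl2l1 at 503, Mcl1 at 475 and Hrk at 392. Before division, Bax (933) was below Hrk (2110), Bcl2l1 (1953) and Mcl1 (1624) in that group. Bad, Bid and Bak1 lay at 178, 139 and 102 normalized counts per kilobase. Bcl2, Bmf and Bcl2l11 were the lowest, at 29.9, 22.0 and 17.2 normalized counts per kilobase. In EYFP_OE the order was the same but for the lowest pair, with Bcl2l11 at 17.7 and Bmf at 14.8, from the authors' deposited table. Without the strand setting, reads of neighbours on the other strand cannot be told apart. The annotated exons of Bad share 21.6% of their bases with Gpr137, those of Bak1 10.7% with Ggnbp1 and those of Bcl2 6.09% with D630008O14Rik. On its own strand Bax shares 22.1% with the gene model Gm45808.

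A difference between the hairpins in the response to E1 was tested by subtracting the shRNA-Ctrl log2 fold change from the shRNA-cFos one, with p adjusted over 14386 genes. Bcl2l1 had a higher response with shRNA-cFos, and Mcl1 and Bid had a lower one. That is 1 member higher and 2 lower of 10, against 12.9% higher and 11% lower of all genes. By a normal approximation on the authors' deposited tables, the difference was 0.66 ± 0.14 for Bcl2l1 (adjusted p = 3.8e-05). It was -0.62 ± 0.11 for Mcl1 (adjusted p = 1.5e-06) and -0.55 ± 0.19 for Bid (adjusted p = 0.020) in the authors' deposited tables. All 3 still passed when the shrinkage was undone, when each table was centred on its median and when the p was adjusted over every gene.

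The other 7 members did not pass this test. Although Bak1 passed at E1 with shRNA-cFos only, its difference was -0.46 ± 0.20 (adjusted p = 0.076, 95% interval -0.85 to -0.07), computed from the authors' deposited tables. For Bcl2l11 it was -0.48 ± 0.25 (adjusted p = 0.15) on the authors' deposited tables. The difference of Bax was -0.20 ± 0.15, with a 95% interval of -0.49 to 0.09, and that of Hrk was 0.16 ± 0.11, with an interval of -0.07 to 0.38, computed from the authors' deposited tables. The intervals of Bcl2 (-0.69 to 0.07), Bad (-0.57 to 0.13) and Bmf (-0.27 to 0.82) included 0 as well, computed from the authors' deposited tables.

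**Figure D3:**
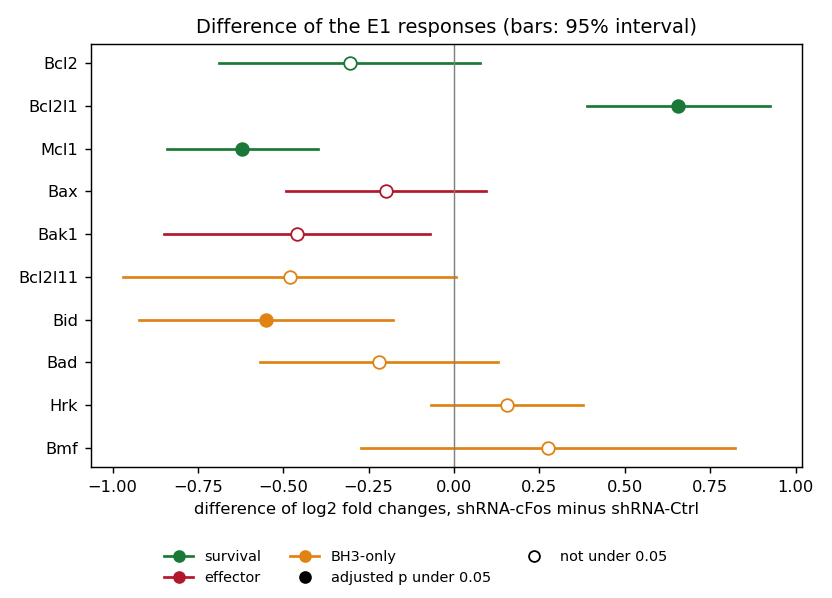
Difference of the E1 log2 fold changes, shRNA-cFos minus shRNA-Ctrl, for each Bcl2 family gene with its 95% interval, filled where the adjusted p was under 0.05. Bcl2l1 lies at 0.66, and Mcl1 and Bid lie at -0.62 and -0.55.

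To see at which state the arms stood apart, the hairpin tables were scaled to each other by the median log2 ratio of E0 levels over 12405 genes (-0.43). No error or test goes with these ratios, and the offset decides their sign for several genes. At E0 the estimated log2 ratio between the arms, shRNA-cFos over shRNA-Ctrl, was -0.62 for Bcl2l1, 0.47 for Mcl1 and 0.52 for Bid, computed from the authors' deposited tables. At E1 it was 0.05 for Bcl2l1, -0.16 for Mcl1 and -0.06 for Bid, computed from the authors' deposited tables. The members spanned -0.62 to 0.52 at E0 and -0.18 to 0.11 at E1. For 9 of 10 members the ratio was farther from 0 at E0 than at E1, as it was for 61.3% of all 12405 genes. The median distance from 0 was 0.35 at E0 and 0.13 at E1 for the members, and 0.17 and 0.12 for all genes. Without the scaling, the ratios at E0 were -1.06 for Bcl2l1, 0.03 for Mcl1 and 0.09 for Bid, and those at E1 were -0.38 for Bcl2l1, -0.59 for Mcl1 and -0.50 for Bid, so this pattern rests on the scaling.

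**Figure D4:**
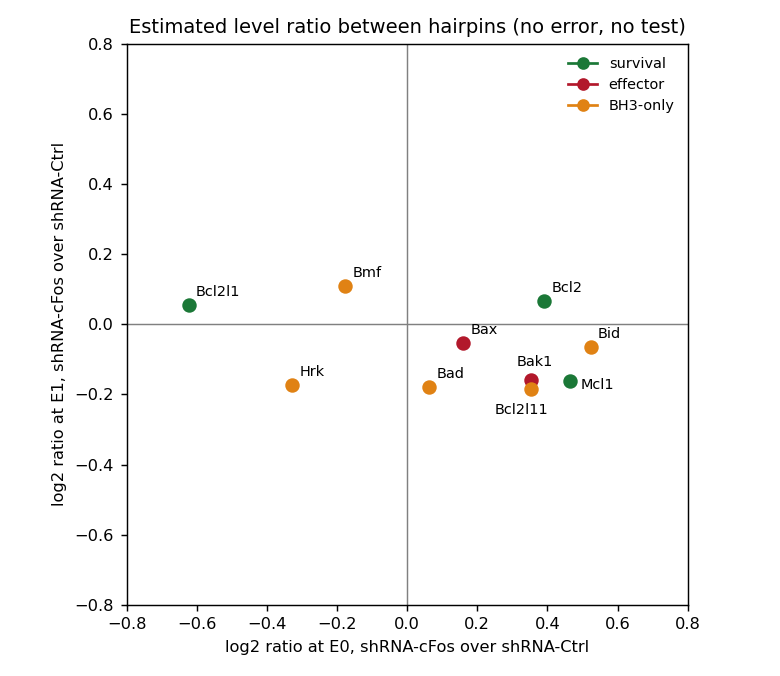
Estimated log2 ratio between the arms, shRNA-cFos over shRNA-Ctrl, at E0 (x axis) and at E1 (y axis) for each Bcl2 family gene, coloured by role, after scaling the tables to each other. Points spread from -0.62 (Bcl2l1) to 0.52 (Bid) along the E0 axis and from -0.18 to 0.11 along the E1 axis.

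Other genes of the death pathway are given by list, with counts to be read against the shares of all tested genes. These shares were 16.3% higher and 11.7% lower for shRNA-cFos, 16.8% and 16.2% for shRNA-Ctrl, and 7.1% and 5.86% for overexpression. For the difference between hairpins they were 12.9% higher and 11% lower. Of the other Bcl2 relatives and BH3 genes, 13 of 16 were tested. At E1 with shRNA-cFos 1 rose and 1 fell, and with shRNA-Ctrl 6 rose and 2 fell, in the authors' deposited tables. Bbc3 (Puma), a BH3-only gene induced by p53, fell with both hairpins, with log2 fold changes of -1.18 ± 0.16 for shRNA-cFos and -0.66 ± 0.16 for shRNA-Ctrl in the authors' deposited tables. Pmaip1 (Noxa), a BH3-only gene whose product binds Mcl1, rose with shRNA-Ctrl by 2.21 ± 0.22, and stood at -0.02 ± 0.25 in the shRNA-cFos arm, in the authors' deposited tables. The hairpins differed by -2.22 ± 0.33 (adjusted p = 3.3e-09) on the authors' deposited tables. The mean normalized count of Pmaip1 was only 28.8 for shRNA-cFos, beside 121 for shRNA-Ctrl. Its value near 0 with shRNA-cFos thus rests on few counts. Bok, an effector relative, rose by 0.81 ± 0.10 with shRNA-cFos in the authors' deposited table. The Bcl2a1 copies, near-identical survival genes of blood cells whose reads may be split among them, rose with shRNA-Ctrl, as in Bcl2a1b (0.91 ± 0.26) in the authors' deposited table. With overexpression, Bcl2a1b was the 1 gene of this list to rise (0.59 ± 0.20) in the authors' deposited table. Counts of Bcl2a1b were low, at means of 44.5 for shRNA-cFos, 49.3 for shRNA-Ctrl and 37.6 for overexpression.

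Downstream of mitochondria, 20 apoptosome, caspase and inhibitor genes were tested. With shRNA-cFos 3 rose and 4 fell, with shRNA-Ctrl 4 rose and 2 fell, and with overexpression 2 rose and 0 fell, in the authors' deposited tables. In a list of 20, these counts are close to the shares of all genes. Apaf1, the scaffold of the apoptosome, rose in all 3, by 0.83 ± 0.11 with shRNA-cFos, 0.61 ± 0.09 with shRNA-Ctrl and 0.53 ± 0.10 with overexpression, in the authors' deposited tables. Of the 14341 genes tested in all 3 tables, 116 (0.809%) were higher and passed in each. Casp9, of the same list, was lower with shRNA-Ctrl (-0.47 ± 0.11) and did not pass with shRNA-cFos or overexpression. Of the 10 death receptor and adaptor genes, 0 rose and 3 fell with shRNA-cFos, 5 rose and 1 fell with shRNA-Ctrl, and 3 rose with overexpression, in the authors' deposited tables. Their difference was higher for 1 and lower for 5, with Tnfrsf1a, a receptor for tumour necrosis factor, at -1.27 ± 0.22 and Fas at -1.56 ± 0.34, computed from the authors' deposited tables. Fas had low mean normalized counts, 37.3 for shRNA-cFos and 54.7 for shRNA-Ctrl. The median log2 fold change of the death receptor list was -0.22 for shRNA-cFos, 0.26 for shRNA-Ctrl and 0.19 for overexpression, beside the medians near 0 of all genes given above, in the authors' deposited tables.

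Of 15 regulators of BH3-only genes, 4 rose and 4 fell with shRNA-cFos, 4 rose and 3 fell with shRNA-Ctrl and 5 fell with overexpression, in the authors' deposited tables. Jun, which promotes Hrk transcription in neurons deprived of growth factor, rose at E1 by 1.18 ± 0.08 with shRNA-cFos and 1.40 ± 0.06 with shRNA-Ctrl in the authors' deposited tables. Foxo3, a forkhead activator of Bcl2l11, rose at E1 by 0.50 ± 0.10 with shRNA-cFos and 0.64 ± 0.09 with shRNA-Ctrl in the authors' deposited tables. With overexpression, Foxo3 was at -0.17 ± 0.11 (adjusted p = 0.38) in the authors' deposited table. The other forkhead genes of the list did not follow Foxo3. Foxo4 passed as lower in each comparison, at -0.41 ± 0.12 for shRNA-cFos, -0.30 ± 0.09 for shRNA-Ctrl and -0.37 ± 0.11 for overexpression. Foxo1 passed in none. Between the hairpins, 3 of the 15 regulators had a higher E1 response with shRNA-cFos and 3 a lower one. The largest differences were those of Ddit3 (-2.00 ± 0.20) and Atf4 (-0.95 ± 0.10), computed from the authors' deposited tables. These are mRNA levels, and the part of any regulator in the changes of the members was not tested. Of 7 genes that control Mcl1 protein turnover, 6 rose with shRNA-cFos and 3 rose and 2 fell with shRNA-Ctrl in the authors' deposited tables. The list holds genes that act for and against Mcl1 destruction, so its counts have no single direction. Among them Fbxw7, part of a ubiquitin ligase that marks Mcl1 for destruction, rose by 0.86 ± 0.10 with shRNA-cFos and 0.70 ± 0.10 with shRNA-Ctrl in the authors' deposited tables. Usp9x, which removes ubiquitin from Mcl1, rose as well, by 0.31 ± 0.09 and 0.52 ± 0.10. The genes that fell with shRNA-Ctrl were Btrc (-0.39 ± 0.06) and Gsk3a (-0.30 ± 0.09). With overexpression 0 of these 7 passed in the authors' deposited DESeq2 table, and 1 had an unadjusted p under 0.05. Partners at the outer mitochondrial membrane included 2 of 10 higher and 1 lower for shRNA-cFos, 1 higher for shRNA-Ctrl and 0 for overexpression, in the authors' deposited DESeq2 tables. With overexpression 0 of these 10 had an unadjusted p under 0.05.

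**Figure D5:**
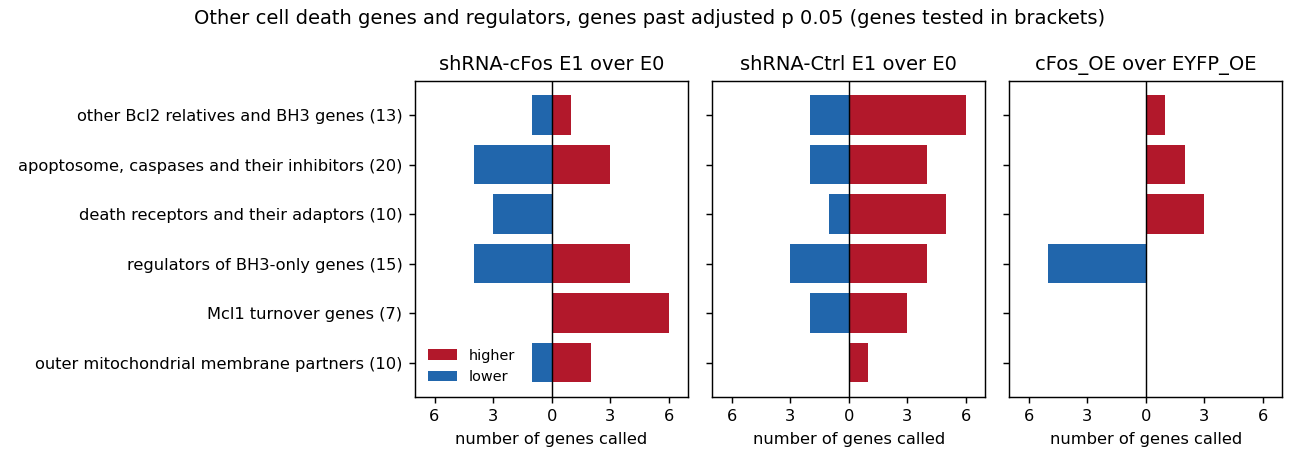
Number of genes past an adjusted p of 0.05 in each list of other cell death genes and regulators (rows, genes tested in brackets), lower to the left and higher to the right, in the 3 comparisons (panels). Death receptors and adaptors have 3 lower for shRNA-cFos, 5 higher and 1 lower for shRNA-Ctrl and 3 higher for overexpression. The row named for outer mitochondrial membrane partners also holds genes whose proteins lie elsewhere.

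Marker genes of several cell types and states moved in the same comparisons, and their part in the changes of the Bcl2 family was not tested. All 14 interferon response genes had a lower E1 response with shRNA-cFos, as Mcl1 and Bid did, and the median of their differences was -1.83 between the authors' deposited tables. Their summed estimated level was 4872 in shRNA-cFos_E1 and 9037 in shRNA-cFos_E0, and 12042 in shRNA-Ctrl_E1 and 5165 in shRNA-Ctrl_E0, from the authors' deposited tables. Within the arms, 0 of these 14 rose and 12 fell at E1 with shRNA-cFos, and 14 rose with shRNA-Ctrl, in the authors' deposited tables. Of the 10 granule neuron markers, 5 rose and 0 fell with shRNA-cFos, and 1 rose and 6 fell with shRNA-Ctrl. Of the 8 microglial markers, 1 rose and 4 fell with shRNA-cFos, and 7 rose and 0 fell with shRNA-Ctrl. Between the arms, microglial markers had a lower response for 4 of 8 and a higher one for 0. Their summed level was 7921 in shRNA-cFos_E1 and 9945 in shRNA-cFos_E0, and 14270 in shRNA-Ctrl_E1 and 10686 in shRNA-Ctrl_E0, from the authors' deposited tables. Granule neuron markers went the way of Bcl2l1, with a higher response for 8 of 10, a median of 0.70 and summed levels of 17164 in shRNA-cFos_E1 and 13358 in shRNA-cFos_E0, and 21928 in shRNA-Ctrl_E1 and 27886 in shRNA-Ctrl_E0, computed from the authors' deposited tables. With overexpression, where Hrk and Bcl2l1 fell, 5 of 10 granule neuron markers fell and 0 rose, with summed levels of 20711 in cFos_OE and 23365 in EYFP_OE, from the authors' deposited table. With overexpression, 4 of 8 microglial markers and 4 of 14 interferon response genes rose and 0 fell. None of these markers was at 0 in a table. Of the remaining lists, oligodendrocyte markers had 0 of 6 past the threshold in each of the 3 comparisons in the authors' deposited DESeq2 tables, and 0 with an unadjusted p under 0.05. That count does not show them unchanged with overexpression. Their median log2 fold change was -0.31 there, with a summed level of 23986 in cFos_OE and 34411 in EYFP_OE, from the authors' deposited table. Of 5 interneuron markers, 3 rose at E1 with shRNA-cFos and 4 with shRNA-Ctrl, and 0 fell, in the authors' deposited tables. Their summed level was 9513 in shRNA-cFos_E1 and 6431 in shRNA-cFos_E0, and 12445 in shRNA-Ctrl_E1 and 10032 in shRNA-Ctrl_E0, from the authors' deposited tables. Of 6 endothelial markers, 1 rose and 1 fell with shRNA-cFos, 2 rose with shRNA-Ctrl, and 4 fell with overexpression, in the authors' deposited tables. Their summed level was 1881 in cFos_OE and 2373 in EYFP_OE, from the authors' deposited table. Of 6 astrocyte markers, 3 rose and 1 fell with shRNA-cFos, 1 rose with shRNA-Ctrl, and 2 rose and 1 fell with overexpression, in the authors' deposited tables. Gfap, an astrocyte filament gene, was the one to fall with shRNA-cFos (-0.57 ± 0.11) and rose with overexpression (0.86 ± 0.20) in the authors' deposited tables. Of 4 pyramidal neuron markers, 1 rose with shRNA-cFos, 2 fell with shRNA-Ctrl and 1 fell with overexpression, in the authors' deposited tables. With overexpression 0 of 5 interneuron markers passed in the authors' deposited DESeq2 table, and 2 had an unadjusted p under 0.05. Between the arms, astrocyte markers had a higher E1 response with shRNA-cFos for 2 of 6 and a lower one for 2, endothelial markers a lower one for 3 of 6, interneuron markers 0 of 5 either way (1 with an unadjusted p under 0.05) and pyramidal markers a higher one for 2 of 4, computed from the authors' deposited tables.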

How the data were processed

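TopHat2, DESeq2 and the mouse build mm9 are the names listed in the submitters' processing notes. Versions, annotation, counting tool and strand setting are not stated in the sources used here. The 3 deposited tables are the authors' own comparisons. Per the file headers, each deposited row holds a mean normalized count (a signal value, counts divided by size factors), a log2 fold change with its standard error on the log2 scale, a Wald score, a p-value and an adjusted p-value. The deposited score matched the ratio of log2 fold change to standard error to within rounding. The tables hold 0 columns per library, so depth per library is unknown and precision is that of the authors' standard errors, with medians of 0.12 for shRNA-cFos, 0.11 for shRNA-Ctrl and 0.12 for overexpression. For overexpression, 27 gene names turned into dates were left out.

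A gene counted as called where the deposited adjusted p was under 0.05. To test whether E1 responses differed, the shRNA-Ctrl log2 fold change was subtracted from the shRNA-cFos one and divided by their combined standard error. The p is 2-sided from the normal distribution, adjusted by Benjamini-Hochberg, and the script was tested on simulated data. The fold changes show a pull toward 0 by a normal prior, with standard deviations of 0.53, 0.59 and 0.41 taken as the largest standard error times 2. It was undone algebraically for levels and as an alternative, which leaves each Wald score as it was. Intervals are at 95%. The 10 members and the 14 gene lists were chosen with earlier results of these data known. Named genes were all members, Fos, and up to 3 genes of a list with the largest changes past the threshold. Prox1 and further values of named genes outside that rule were added after seeing values. The scaling between hairpin tables was chosen after seeing the data. The plan allowed for counts per library, and the tests for comparison tables alone were used. Alternatives were the scaling, the shrinkage, the genes adjusted over, a mean count of at least 50, an adjusted p under 0.01 and a fold minimum of 1.5. Python 3.11.15, pandas 2.3.3 and scipy 1.17.1 were used.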

Additional observations from a re-analysis of the deposited data

Results flagged for a closer look

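The E1 response of 3 members differed between the hairpins by a test of the difference itself, a normal approximation on the authors' deposited tables. It was higher with shRNA-cFos than with shRNA-Ctrl for Bcl2l1 (0.66 ± 0.14). It was lower with shRNA-cFos for Mcl1 (-0.62 ± 0.11) and for Bid (-0.55 ± 0.19). No outlying library could be looked for, since the tables hold no values per library.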

How the results depend on the processing

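The settings tried first were removing the shrinkage, centring on the table's median, adjusting over every gene with a p and a mean normalized count of at least 50. They lost 1 call, Bid at E1 with shRNA-Ctrl (adjusted p = 0.051 when centred and 0.057 over every gene). The direction of 0 of the 40 member values changed, which was largely fixed in advance. Adjusting over every gene and the count minimum leave each value as it is. Removing the shrinkage cannot turn a sign within a table. Centring subtracted table medians of only -0.003 for shRNA-cFos, 0.007 for shRNA-Ctrl and -0.007 for overexpression. At an adjusted p under 0.01, the members called fell to 3 for shRNA-cFos (6 at 0.05) and 3 for shRNA-Ctrl (5 at 0.05). The calls lost were Bcl2l1, Bad and Hrk for shRNA-cFos, and Bax and Bid for shRNA-Ctrl. Overexpression lost Bcl2l1 and the difference lost Bid, which left 2 members in each (3 at 0.05). The fall of Hrk in all 3 comparisons, that of Bax in each arm and the opposite E1 calls of Bcl2l1 thus rest on the 0.05 threshold. All genes called at an adjusted p under 0.01 were 2622 for shRNA-cFos (4039 at 0.05) and 3732 for shRNA-Ctrl (5173 at 0.05). They were 1366 for overexpression (2052 at 0.05) and 2202 for the difference (3426 at 0.05). With a fold minimum of 1.5, members called were 0 for shRNA-cFos, 1 for shRNA-Ctrl (Mcl1) and 0 for overexpression in the DESeq2 tables, and all genes called were 1077, 1660 and 615. The difference then had 1708 genes, 43.6% of them higher against 54.0% without the minimum, and 2 members, Bcl2l1 and Mcl1. The share of higher calls with overexpression was 76.7% with the fold minimum and 54.8% without, and with shRNA-Ctrl 61.4% and 51.0%. Leaving out a replicate and comparing normalizations were not run, as no values per library were at hand. No paired analysis was possible because the tables hold comparisons and no library columns. Depth limits Bmf most, with mean counts of 66.3 to 92.4.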
